A study of Mus musculus with 12 samples.

Results

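The BCL2 family regulators of apoptosis described here were 10 genes chosen by symbol as members of the family, Bcl2, Bcl2l1, Mcl1, Bax, Bak1, Bid, Bbc3, Pmaip1, Bcl2l11 and Bmf, out of 40760 genes in the count table. The rule used no expression value. All 10 were found under a single gene identifier each. They were counted in bulk RNA-seq of CD140a+ (Pdgfra+) mesenchymal cells that had been flow-sorted from the lungs of male adult mice, in 12 libraries and 4 groups of 3. The groups were wild-type (WT) mice given vehicle, Pear1-/- mice given vehicle, WT mice given bleomycin (bleo) and Pear1-/- mice given bleo. Bleo is an agent that breaks DNA and is used to bring on pulmonary fibrosis in mice. Pear1 encodes a transmembrane receptor, and the Pear1-/- mice carried a knockout-first allele in all their cells. In that allele a trapping cassette lies in an intron of the gene and is meant to cut the transcript short. Reads from the exons before the cassette can still be counted, and counts per exon were not examined. The study asked how loss of Pear1 changed these cells in the fibrosis model. How many mice stood behind a library was not given in the sources used here, so that the p-values measure only the spread between these libraries, which may be technical.

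BCL2 family proteins decide whether the outer membrane of the mitochondrion is opened, a step that releases cytochrome c and starts the caspases. The anti-apoptotic members (BCL2, BCL-XL encoded by Bcl2l1, and MCL1) hold the effectors BAX and BAK in check. The BH3-only members (BID, PUMA encoded by Bbc3, NOXA encoded by Pmaip1, BIM encoded by Bcl2l11, and BMF) bind the anti-apoptotic members or the effectors and tip the balance towards death. Bax, Bbc3 and Pmaip1 are known targets of p53, the factor that answers DNA damage.

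Between 6702948 and 10447101 reads were counted per library, and the members had between 24 and 3790 reads in a library. Pairs of libraries were compared by a chi-square over genes, divided by its degrees of freedom, where a value of 1 would mean no spread beyond counting. This ratio lay between 1.35 and 1.49 among the bleo libraries of a group and between 1.44 and 4.82 in Pear1-/- vehicle. WT vehicle replicate 2 stood apart from its group at 21.2 and 21.8, and lay at 1.73 to 2.67 from the Pear1-/- vehicle libraries. The deposited labels were kept, and the members' comparisons with the WT vehicle group are given with and without that library. Counts of Pear1 itself did not mark the knockout. As normalized counts (mean ± SD, n = 3) they were 519.7 ± 24.0 in libraries labelled Pear1-/- vehicle against 547 ± 28.8 for WT, and 357 ± 14.2 in libraries labelled Pear1-/- bleo against 254 ± 14.0 for WT. The cell type of the label was checked against marker lists. The sorted gene Pdgfra had between 4125 and 4802 normalized counts in the vehicle libraries, between 1338 and 1394 in WT bleo and between 2369.9 and 2403 in Pear1-/- bleo. The summed level of 26 leukocyte markers in CPM (the share of a library's counts, scaled so that each library sums to the same total) was between 8357 and 9929 in WT vehicle, between 9641 and 10603 in Pear1-/- vehicle, between 37694 and 38809 in WT bleo and between 17118 and 17459 in Pear1-/- bleo. No marker of the 26 was at 0 in a group, and Ptprc, which encodes CD45, had between 3010.0 and 7727 normalized counts. The summed level of 10 fibroblast markers was between 18442 and 19367 CPM in WT vehicle, between 18184 and 18505 in Pear1-/- vehicle, between 12592 and 12715 in WT bleo and between 32492 and 33259.8 in Pear1-/- bleo. After bleo 2 of the 10 were called higher and 8 lower in WT, and 3 higher (Col1a1, Col1a2 and Col3a1) and 7 lower (Pdgfra among them) in Pear1-/-. In bulk samples, a change in the number of cells of a type and a change in the RNA of each cell cannot be told apart.

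**Figure D1:**
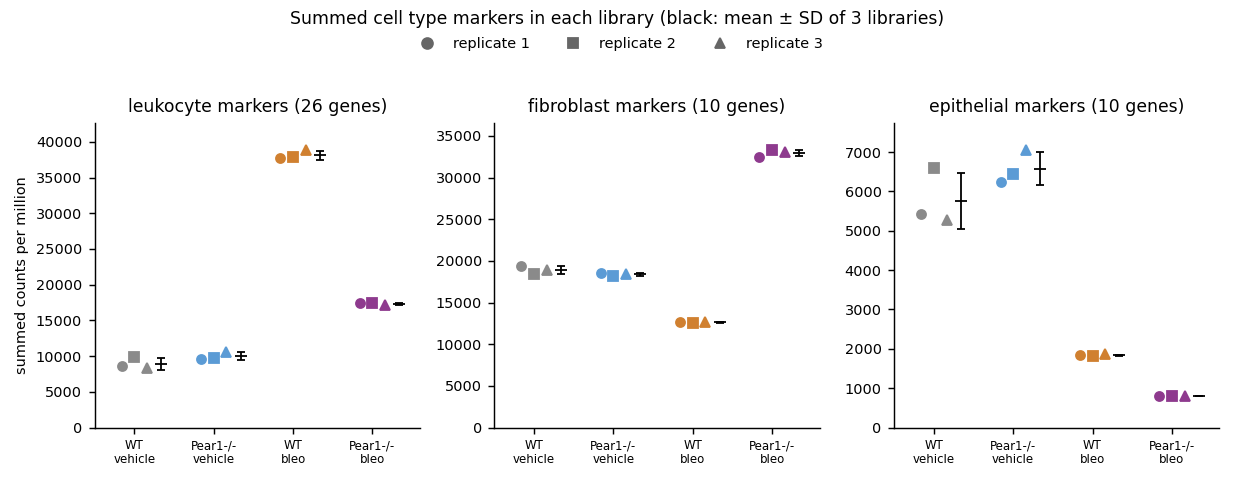
Summed CPM (y axis, from 0) of the leukocyte, fibroblast and epithelial marker lists in each of the 12 libraries, by group; points are libraries with a shape for each replicate number, and black bars are the mean ± SD of 3 libraries. The leukocyte sum was highest in WT bleo, at 37694 to 38809. There Cd74, Lyz2 and Ctss had the highest counts, and 19 of the 26 markers were called higher and 5 lower than in WT vehicle. The fibroblast sum was highest in Pear1-/- bleo, at 32492 to 33259.8, where 3 collagen genes were higher and the other 7 markers lower than in Pear1-/- vehicle.

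The promoters of 4 members are printed because their genes stood for the main patterns below. Bax and Bak1 were higher after bleo in both genotypes, Mcl1 was much higher after bleo in WT, and Bcl2 was lower after bleo in Pear1-/-. Each line holds the 250 bases before the gene's only RefSeq start (GRCm38.p6), in the direction of transcription, and capitals mark matches to 4 motifs looked for on both strands. The motifs were the p53 half-site, the GC box GGGCGG, the STAT site TTCNNNGAA and the AP-1 site TGANTCA. The windows lie at chr7:45466899-45467148 on the minus strand for Bax, chr17:27028628-27028877 on the minus strand for Bak1, chr3:95658471-95658720 on the plus strand for Mcl1 and chr1:106714291-106714540 on the minus strand for Bcl2.
Bax: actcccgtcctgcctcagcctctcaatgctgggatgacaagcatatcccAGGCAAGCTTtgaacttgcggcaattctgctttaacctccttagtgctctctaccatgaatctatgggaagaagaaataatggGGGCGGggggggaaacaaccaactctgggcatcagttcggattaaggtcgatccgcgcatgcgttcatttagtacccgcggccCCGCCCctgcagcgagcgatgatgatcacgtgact
Bak1: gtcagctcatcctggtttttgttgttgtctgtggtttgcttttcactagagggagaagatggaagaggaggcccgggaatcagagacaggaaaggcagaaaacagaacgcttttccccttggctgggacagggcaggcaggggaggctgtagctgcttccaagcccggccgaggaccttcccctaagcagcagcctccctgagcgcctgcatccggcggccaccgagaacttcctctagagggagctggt
Mcl1: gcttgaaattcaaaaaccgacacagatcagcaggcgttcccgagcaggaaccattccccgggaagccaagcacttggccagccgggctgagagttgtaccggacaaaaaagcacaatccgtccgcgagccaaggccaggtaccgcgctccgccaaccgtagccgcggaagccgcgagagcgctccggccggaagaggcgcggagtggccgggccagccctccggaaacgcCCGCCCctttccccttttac
Bcl2: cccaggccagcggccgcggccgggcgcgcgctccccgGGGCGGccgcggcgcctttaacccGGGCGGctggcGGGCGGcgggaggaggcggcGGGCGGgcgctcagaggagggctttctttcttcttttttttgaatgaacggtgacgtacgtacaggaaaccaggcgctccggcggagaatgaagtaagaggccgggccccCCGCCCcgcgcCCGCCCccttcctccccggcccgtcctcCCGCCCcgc

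The Bax window held 1 p53 half-site, between 201 and 192 bases before the start, and 2 GC boxes. The Bcl2 window held 7 GC boxes, and 74.8% of its bases were G or C. Mcl1 had 1 GC box, between 20 and 15 bases before its start. Bak1 had no match to any of the 4 motifs. Of 32851 RefSeq windows of this length, 7.13% held a p53 half-site, 32.7% a GC box, 7.02% a STAT site and 6.75% an AP-1 site. Windows of 9 of the 10 members were searched, 16 in all. Windows on chromosome 18, which holds Pmaip1, were left out, so that Pmaip1 was not searched. Among the remaining windows, 1 of the 3 of Bmf held a p53 half-site, and Bid, Bbc3 and Bcl2l11 held GC boxes. None of the 16 windows searched held a STAT or AP-1 match. A match is a run of letters and was not tested as a binding site.

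Levels of different members can be set side by side only per length of exon, and in this paragraph every value is a mean level in normalized counts per kb ± SD (n = 3). The length was that of all annotated exons of a gene together. The lengths of the transcripts present were not known, and the order of the members depends on this choice. Mcl1, a short-lived anti-apoptotic protein, had the highest mean in all groups, without overlap with the next member in 3 of the 4, with 312 ± 47.8 in WT vehicle, 1007 ± 17.5 in WT bleo, 384 ± 17.2 in Pear1-/- vehicle and 461 ± 13.1 in Pear1-/- bleo. In WT vehicle it was followed by Pmaip1 (242 ± 12.5), Bax (232 ± 28.8) and Bcl2l1 (232 ± 15.6), whose ranges overlapped from each to the next. Bbc3 (90.1 ± 13.2) came next, then Bcl2l11 (64.1 ± 5.51) and Bcl2 (56.6 ± 12.9), whose ranges also overlapped. Bid (33.8 ± 4.02) and Bmf (33.0 ± 2.81) overlapped too, and Bak1 was last at 13.6 ± 1.28. Without WT vehicle replicate 2, Pmaip1 (231 to 240.1) lay above Bcl2l1 (218 to 229) and Bax (206 to 228), and Bcl2 (46.4 to 52.4) lay below Bcl2l11 (57.7 to 66.9), while Bcl2l1 still overlapped with Bax and Bid with Bmf. In WT bleo, Bax stood after Mcl1 at 504 ± 22.7, followed by Pmaip1 at 422 ± 5.18, each without overlap with its neighbours in the order. In Pear1-/- bleo, Bax at 460.4 ± 11.8 could not be ordered against Mcl1, because their libraries overlapped. Bcl2 moved to the bottom of the order in that group, at 36.4 ± 0.77, and did not overlap with Bak1 above it at 48.5 ± 8.32. The effector Bak1 therefore ranked below Bcl2 in both vehicle groups and above it in Pear1-/- bleo.

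**Figure D2:**
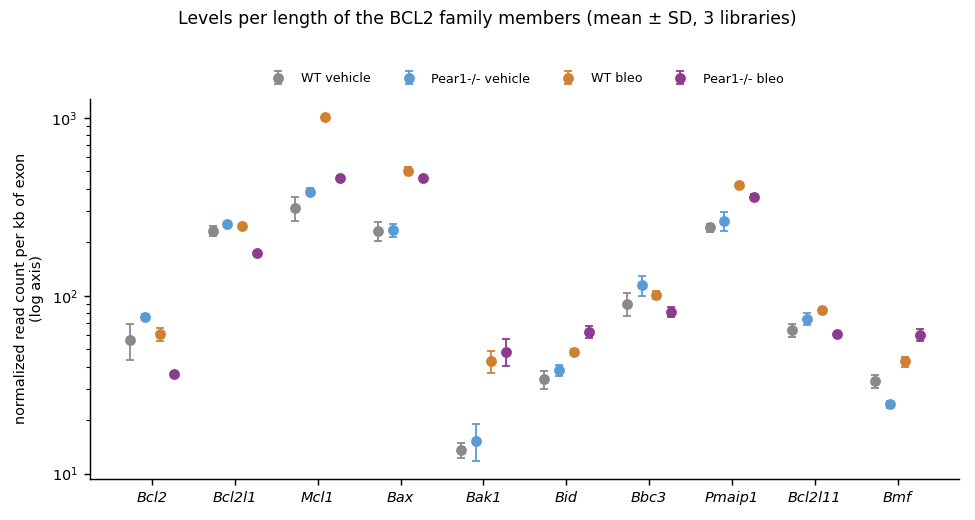
Mean normalized read count per kb of exon (y axis, log scale) of each member in the 4 groups, with bars for the SD of 3 libraries. Mcl1 is the highest point in every group, and Bcl2 falls below all other members in Pear1-/- bleo, at 36.4.

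After bleo in WT cells, 7 of the 10 members rose and none fell at an adjusted p under 0.05 in edgeR's quasi-likelihood test. Among all 17418 genes tested, 68% were called in this comparison, 31.4% higher and 36.6% lower. The risers were Mcl1, both effectors and 4 of the 5 BH3-only members. The median log2 fold change of the members was 0.45, against -0.07 for all genes tested. The libraries of the groups did not overlap for 7 of the members, beside 68.7% of all genes. Without WT vehicle replicate 2 all 10 members were called higher, beside 76.4% of the genes then tested being called. The log2 fold changes were then 1.30 for Bax, 1.78 for Bak1, 0.69 for Bid, 0.92 for Pmaip1, 0.49 for Bcl2l11 and 0.40 for Bmf. The members' median was then 0.59, against -0.21 for all genes, and the libraries did not overlap for any of the 10 members, beside 81.3% of all genes. The summed leukocyte markers were higher in WT bleo than in WT vehicle, as given above, with 19 of 26 called higher and 5 lower, and their part in the members' differences was not tested.

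After bleo in Pear1-/- cells all 10 members were called, 6 higher and 4 lower. Of all genes 62.3% were called, 28.9% higher and 33.4% lower. Mcl1, Bax, Bak1, Bid, Pmaip1 and Bmf rose, and Bcl2, Bcl2l1, Bbc3 and Bcl2l11 fell. The median log2 fold change of the members was 0.36, against -0.05 for all genes. The groups overlapped for none of the 10 members, beside 70.9% of all genes with groups apart. Of the leukocyte markers 15 of 26 were called higher and 8 lower.

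Between the bleo groups, 8 members differed, 2 higher (Bid and Bmf) and 6 lower (Bcl2, Bcl2l1, Mcl1, Bbc3, Pmaip1 and Bcl2l11) in Pear1-/-. Of all genes 46% were called, 22.1% higher and 23.9% lower. All 3 anti-apoptotic members were lower in Pear1-/- bleo, and neither effector was called. The count was 5 without WT bleo replicate 2, without Pear1-/- bleo replicate 2 or without Pear1-/- bleo replicate 3, and 6 without any one of the other bleo libraries, beside 31.5% to 32.0% of all genes called in these fits. The calls lost were those of Bid, Bbc3 and Pmaip1. The members' median log2 fold change was -0.28, against -0.01 for all genes. For 9 of the 10 members the libraries of the groups did not overlap, beside 62.9% of all genes. Among the leukocyte markers 22 of 26 were called lower and 1 higher in Pear1-/- bleo, and their part in these differences was not tested.

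Between the vehicle groups, Bmf alone was called, and it was lower in Pear1-/-. Of all genes 4.5% were called, 0.855% higher and 3.65% lower. The members' median log2 fold change was 0.16, against -0.00 for all genes. The libraries did not overlap for 4 members, Bcl2, Bcl2l1, Bcl2l11 and Bmf, beside 19.2% of all genes. This comparison rested on WT vehicle replicate 2. Without it 8 members were called, 7 higher and 1 lower in Pear1-/- vehicle, beside 55.2% of the genes then tested. The members' median was then 0.29, against -0.03 for all genes, and the libraries did not overlap for 7 members (Mcl1, Bid and Bbc3 added), beside 62.1% of all genes. The summed leukocyte markers of the other 2 WT vehicle libraries were 8357 and 8552 CPM, below the 9641 to 10603 of Pear1-/- vehicle, and the summed epithelial markers were 5271 and 5427 CPM, below 6230 to 7044. With replicate 2, at 9929 and 6584 CPM, both sums overlapped between the groups, and the part of these markers in the members' differences was not tested. Leaving out any one of the other 5 vehicle libraries left 0 members called, with 3 to 6 members then at an unadjusted p under 0.05, and 0 of all genes tested were then called (2955 to 5868 genes had an unadjusted p under 0.05 in edgeR).

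The effect of bleo itself was compared between genotypes by the interaction term, the difference between the 2 log2 fold changes. It was called for 7 members, below 0 for Bcl2, Bcl2l1, Mcl1, Bbc3, Pmaip1 and Bcl2l11 and above 0 for Bmf. Of all genes 37% were called, 17.9% above and 19.1% below 0. Bax, Bak1 and Bid were not called. Without WT vehicle replicate 2 the interaction was called for 8 members, Bax added, beside 46.4% of the genes then tested. Its values were then -0.79 for Bcl2l1, -0.79 for Bcl2l11, -0.84 for Bbc3, -0.48 for Pmaip1 and 0.89 for Bmf, and -0.11 for Bak1 and 0.01 for Bid, which were not called. The median over the members was -0.51, against -0.00 for all genes, and -0.64 against 0.01 without WT vehicle replicate 2. The comparisons share groups of libraries, so that their values are given side by side and not as separate evidence.

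**Figure D3:**
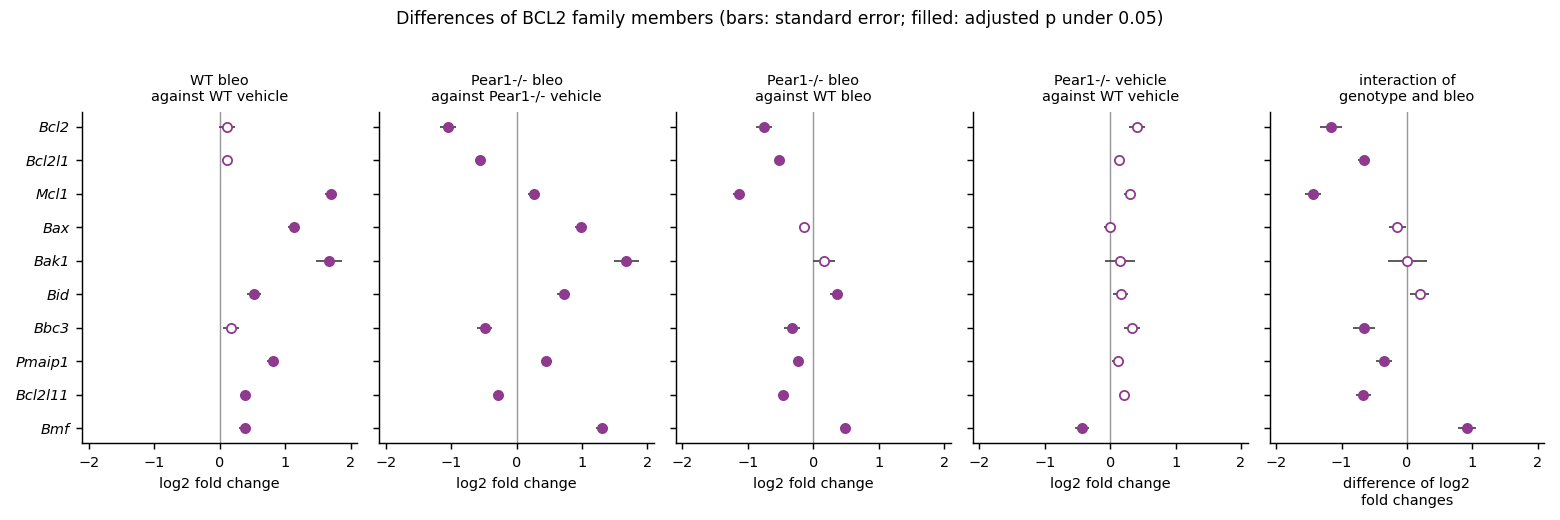
Log2 fold change of each member (x axis, with bars for the standard error) in the 4 comparisons of groups and, on the right, the interaction, which is the difference of log2 fold changes. Filled points have an adjusted p under 0.05. The 3 anti-apoptotic members lie left of 0 in Pear1-/- bleo against WT bleo, from -1.14 to -0.53, and the points of Bax and Bak1 lie right of 0 after bleo in both genotypes.

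Mcl1 (ENSMUSG00000038612, chromosome 3: 95658788 to 95663176, plus strand) stood out in WT bleo. Its normalized counts were 953, 1252 and 989 in WT vehicle, 3481, 3472 and 3373 in WT bleo, 1326, 1364 and 1248 in Pear1-/- vehicle and 1557, 1540.4 and 1625 in Pear1-/- bleo. All 3 WT bleo libraries lay above all 9 others. Mcl1 rose 3.26-fold in WT (log2 fold change 1.70 ± 0.09 SE, adjusted p = 2.7e-10) and 1.20-fold in Pear1-/- (0.27 ± 0.09, adjusted p = 0.0159). The second call was lost without each of the 6 libraries in turn, at adjusted p between 0.0673 and 0.12. Pear1-/- bleo was below WT bleo by a log2 fold change of -1.14 ± 0.09 (adjusted p = 6.61e-08), and the interaction was -1.44 ± 0.12 (adjusted p = 7.14e-07). The vehicle groups differed by 0.30 ± 0.09 (adjusted p = 0.0587), and by 0.50 without WT vehicle replicate 2 (adjusted p = 6.59e-09). Without that library the rise in WT was 1.90 and the interaction -1.65.

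Bcl2 (ENSMUSG00000057329, chromosome 1: 106538178 to 106714274, minus strand), the founding anti-apoptotic member, differed after bleo by genotype. Its normalized counts were 424, 650.4 and 479.7 in WT vehicle, 529, 609.8 and 534 in WT bleo, 724, 676 and 679 in Pear1-/- vehicle and 336, 326 and 339 in Pear1-/- bleo. The 3 Pear1-/- bleo libraries were the lowest of the 12, and the WT groups overlapped because of the high value in WT vehicle replicate 2. Bcl2 fell to 0.483 of its vehicle level in Pear1-/- (-1.05 ± 0.12, adjusted p = 2.2e-06). In WT the log2 fold change was 0.11 ± 0.12 (adjusted p = 0.41), and 0.38 without WT vehicle replicate 2 (adjusted p = 6.57e-05). Bcl2 was lower in Pear1-/- bleo than in WT bleo by a log2 fold change of -0.75 ± 0.12 (adjusted p = 0.000105), and the interaction was -1.16 ± 0.17 (adjusted p = 7.94e-05), or -1.45 without WT vehicle replicate 2. The vehicle groups differed by 0.41 ± 0.12 (adjusted p = 0.0537), and 0.68 without WT vehicle replicate 2 (adjusted p = 2.16e-09).

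Bcl2l1 (ENSMUSG00000007659, chromosome 2: 152780668 to 152831728, minus strand) encodes BCL-XL, and also the shorter pro-apoptotic BCL-XS by alternative splicing, which counts per gene do not separate. Its normalized counts were 1050.2, 1141 and 999 in WT vehicle, 1127, 1135 and 1143 in WT bleo, 1149.6, 1167 and 1188 in Pear1-/- vehicle and 779.6, 817 and 787 in Pear1-/- bleo. The Pear1-/- bleo libraries were again the lowest of the 12. Bcl2l1 fell in Pear1-/- by a log2 fold change of -0.55 ± 0.07 (adjusted p = 3.89e-06) and had 0.11 ± 0.07 in WT (adjusted p = 0.167). Without WT vehicle replicate 2 the WT value was 0.22 and was called (adjusted p = 0.00145). The bleo groups differed by -0.53 ± 0.07 (adjusted p = 1.04e-05), and the interaction was -0.66 ± 0.09 (adjusted p = 7.01e-05). For the vehicle groups it was 0.13 ± 0.07 (adjusted p = 0.187), and 0.26 without WT vehicle replicate 2 (adjusted p = 0.000632).

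**Figure D4:**
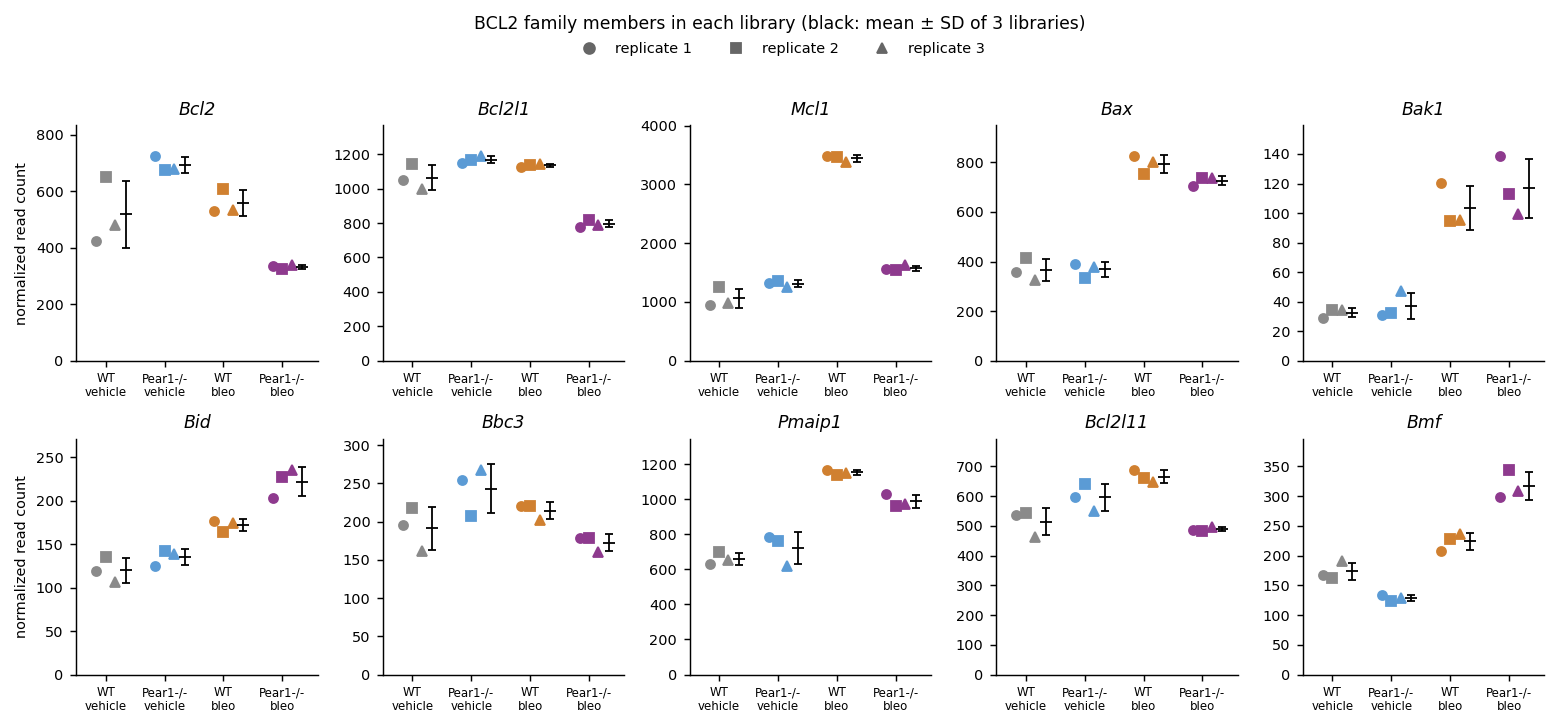
Normalized read count (y axis, from 0, its own scale in each panel) of each of the 10 members in all 12 libraries, by group. Points are libraries, with a shape for each replicate number, and black bars are the mean ± SD of 3 libraries. Mcl1 in WT bleo (3373 to 3481) lies far above the other groups, and Bcl2 in WT vehicle replicate 2 (650.4) lies above the other WT vehicle libraries (424 and 479.7).

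The effectors rose with bleo in both genotypes. Bax (ENSMUSG00000003873, chromosome 7: 45461697 to 45466898, minus strand), whose protein moves to the mitochondrion when activated, had 359, 414 and 324 normalized counts in WT vehicle, 825, 755 and 802 in WT bleo, 391, 335 and 379 in Pear1-/- vehicle and 704, 735 and 738 in Pear1-/- bleo. Every bleo library was above every vehicle library. Bax rose 2.19-fold in WT (1.13 ± 0.09, adjusted p = 2.83e-08) and 1.98-fold in Pear1-/- (0.98 ± 0.09, adjusted p = 1.72e-07). The bleo groups did not overlap, but their difference of -0.14 ± 0.08 was not called (adjusted p = 0.183). It was called only when the fit held these 2 groups alone (adjusted p = 0.0113). The interaction was -0.14 ± 0.12 (adjusted p = 0.386), and -0.33 without WT vehicle replicate 2 (adjusted p = 0.0114). In vehicle the genotypes differed for Bax by 0.00 ± 0.09 (adjusted p = 0.989), or 0.18 without WT vehicle replicate 2 (adjusted p = 0.0888).

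Bak1 (ENSMUSG00000057789, chromosome 17: 27019810 to 27029009, minus strand) encodes BAK, the effector that sits in the mitochondrial membrane. It was the lowest-counted member, with 29.1, 34.5 and 34.3 normalized counts in WT vehicle, 120.3, 94.8 and 95.2 in WT bleo, 31.2, 32.5 and 46.9 in Pear1-/- vehicle and 139, 113 and 99.1 in Pear1-/- bleo. The bleo and vehicle libraries did not overlap, and the genotypes did overlap under each treatment. Bak1 rose 3.18-fold in WT (1.67 ± 0.20, adjusted p = 3.04e-06) and 3.20-fold in Pear1-/- (1.68 ± 0.19, adjusted p = 2.05e-06). With limma on variance-stabilized values these differences were 0.98 and 1.02 and were still called. The interaction was 0.01 ± 0.30 (adjusted p = 0.999). The bleo groups differed by 0.16 ± 0.16 (adjusted p = 0.451) and the vehicle groups by 0.15 ± 0.23 (adjusted p = 0.664), or 0.26 without WT vehicle replicate 2 (adjusted p = 0.41).

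The ratio of Bax to Bcl2 counts within a library does not depend on the scaling between libraries. Its log2 was -0.24, -0.65 and -0.57 in WT vehicle, 0.64, 0.31 and 0.59 in WT bleo, -0.89, -1.01 and -0.84 in Pear1-/- vehicle and 1.07, 1.17 and 1.12 in Pear1-/- bleo. No 2 groups overlapped, and the order was Pear1-/- vehicle, WT vehicle, WT bleo and Pear1-/- bleo from low to high. The mean log2 ratio differed by 0.997 between WT bleo and WT vehicle, by 2.03 between Pear1-/- bleo and Pear1-/- vehicle, by 0.61 between the bleo groups and by -0.43 between the vehicle groups. Each gave p = 0.1 in a two-sided exact permutation test, the smallest that 3 libraries against 3 allow, and 0.1 after adjustment over the 4 comparisons. Without WT vehicle replicate 2 the differences that used it were 0.91 and -0.51. The counts of these genes also carry their exon lengths, so that a log2 ratio of 0 is not an equal number of transcripts. Ratios of Bax to the other anti-apoptotic members were not computed. After bleo in WT the log2 fold change was 1.70 for Mcl1 and 1.13 for Bax, and in Pear1-/- it was 0.27 for Mcl1 and 0.98 for Bax.

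**Figure D5:**
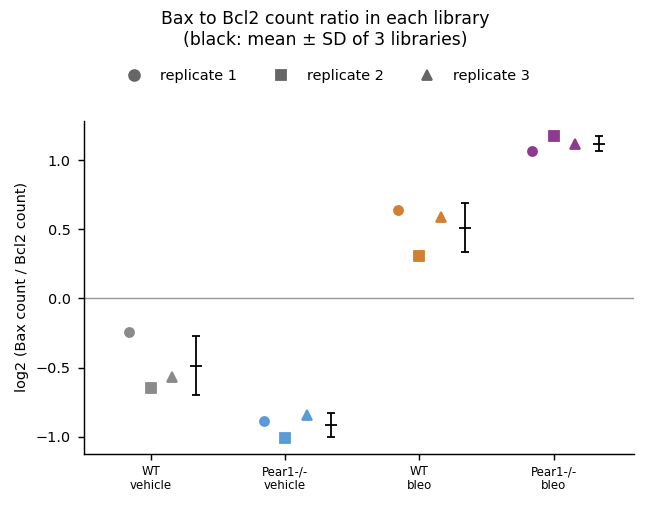
Log2 of the Bax count over the Bcl2 count (y axis) in each of the 12 libraries, by group, with a shape for each replicate number and black bars for the mean ± SD of 3 libraries. The vehicle libraries lie below 0 and the bleo libraries above it, with Pear1-/- bleo highest at 1.07 to 1.17.

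The BH3-only members divided into those that rose with bleo in both genotypes and those that fell in Pear1-/-. Bmf (ENSMUSG00000040093, chromosome 2: 118528757 to 118549687, minus strand), a sensor linked to the cytoskeleton, had 167, 162 and 190.0 normalized counts in WT vehicle, 208, 227 and 237 in WT bleo, 134, 123 and 129 in Pear1-/- vehicle and 299, 344 and 309 in Pear1-/- bleo. The 4 groups did not overlap. Bmf rose 1.30-fold in WT (0.38 ± 0.10, adjusted p = 0.00259) and 2.47-fold in Pear1-/- (1.30 ± 0.10, adjusted p = 1.86e-08). It was the only member with a called interaction above 0, at 0.92 ± 0.14 (adjusted p = 0.000106). Bmf was higher in Pear1-/- bleo than in WT bleo by 0.49 ± 0.09 (adjusted p = 0.000386). Under vehicle Bmf was lower in Pear1-/-, with a log2 fold change of -0.43 ± 0.10 (adjusted p = 0.0413), a call that held without WT vehicle replicate 2 (-0.41, adjusted p = 0.00484) and was lost without each of the other 5 vehicle libraries.

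Bid (ENSMUSG00000004446, chromosome 6: 120891930 to 120916853, minus strand), which is cleaved by caspase-8 and links the death receptors to the mitochondrion, had 119, 135 and 106 normalized counts in WT vehicle, 177, 164 and 174 in WT bleo, 125, 142 and 139 in Pear1-/- vehicle and 203, 227 and 235 in Pear1-/- bleo. The Pear1-/- bleo libraries were the 3 highest. Bid rose by 0.53 ± 0.11 in WT (adjusted p = 0.000535) and by 0.72 ± 0.10 in Pear1-/- (adjusted p = 2.26e-05) on the log2 scale, with an interaction of 0.19 ± 0.15 (adjusted p = 0.334). The bleo groups differed by 0.35 ± 0.10 (adjusted p = 0.0087), which was lost without WT bleo replicate 2, Pear1-/- bleo replicate 2 or Pear1-/- bleo replicate 3 (adjusted p between 0.0629 and 0.0748). Between the vehicle groups the value was 0.16 ± 0.11 (adjusted p = 0.327), and 0.33 without WT vehicle replicate 2 (adjusted p = 0.0343).

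Pmaip1 (ENSMUSG00000024521, chromosome 18: 66458533 to 66465565, plus strand) encodes NOXA, which binds MCL1. Its normalized counts were 631, 698 and 656 in WT vehicle, 1166, 1138 and 1152 in WT bleo, 783, 763 and 617 in Pear1-/- vehicle and 1027, 964 and 970.3 in Pear1-/- bleo. Both bleo groups lay above both vehicle groups, and WT bleo lay above Pear1-/- bleo. Pmaip1 rose 1.75-fold in WT (0.81 ± 0.08, adjusted p = 7.11e-07) and 1.37-fold in Pear1-/- (0.46 ± 0.08, adjusted p = 0.000253). The bleo groups differed by -0.24 ± 0.08 (adjusted p = 0.0298), a call lost without each bleo library in turn, with adjusted p between 0.0593 and 0.125, and also with limma (0.0586) and without the filter on low counts (0.16). The interaction of -0.36 ± 0.12 (adjusted p = 0.0292) was lost without any one of 6 of the 12 libraries and with limma (0.0613). Without WT vehicle replicate 2 it was called. The vehicle groups overlapped (0.12 ± 0.09, adjusted p = 0.344), and differed by 0.24 without WT vehicle replicate 2 (adjusted p = 0.00941).

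Bcl2l11 (ENSMUSG00000027381, chromosome 2: 128126038 to 128162547, plus strand) encodes BIM, which can bind every anti-apoptotic member. Its normalized counts were 537, 543 and 464 in WT vehicle, 688, 662 and 646 in WT bleo, 598, 641 and 550.0 in Pear1-/- vehicle and 487, 483 and 498 in Pear1-/- bleo. The WT libraries were higher after bleo without overlap, and the Pear1-/- libraries were lower without overlap. Bcl2l11 rose by 0.38 ± 0.08 in WT (adjusted p = 0.000486) and fell in Pear1-/- with a log2 fold change of -0.28 ± 0.08 (adjusted p = 0.00514), a call lost without the filter on low counts (adjusted p = 0.0985). The interaction was -0.67 ± 0.11 (adjusted p = 0.000262), and the bleo groups differed by -0.46 ± 0.08 (adjusted p = 0.000184). Between the vehicle groups the value was 0.21 ± 0.08 (adjusted p = 0.0932), and 0.32 without WT vehicle replicate 2 (adjusted p = 0.000609).

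Bbc3 (ENSMUSG00000002083, chromosome 7: 16308393 to 16318205, plus strand) encodes PUMA. Its normalized counts were 195, 217 and 161 in WT vehicle, 220.4, 220.3 and 201 in WT bleo, 255, 207 and 267 in Pear1-/- vehicle and 178, 179 and 160.1 in Pear1-/- bleo. The WT groups overlapped, and the Pear1-/- groups did not. Bbc3 fell in Pear1-/- with a log2 fold change of -0.49 ± 0.12 (adjusted p = 0.00209) and had 0.17 ± 0.12 in WT (adjusted p = 0.215), or 0.34 without WT vehicle replicate 2 (adjusted p = 0.01). The interaction was -0.66 ± 0.17 (adjusted p = 0.00642). The bleo groups differed by -0.32 ± 0.12 (adjusted p = 0.0354), a call lost without each bleo library in turn, with adjusted p between 0.062 and 0.163, and also with DESeq2 (0.0593), with limma (0.0586) and without the filter on low counts (0.0762). Under vehicle the log2 value was 0.33 ± 0.12 (adjusted p = 0.0815), and 0.51 without WT vehicle replicate 2 (adjusted p = 0.000373). Bax and Pmaip1, also known p53 targets, rose in both genotypes.

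The rest of the pathway was read through 5 lists, whose counts stand against the shares of all genes called, which were 68% after bleo in WT, 62.3% after bleo in Pear1-/- and 46% between the bleo groups. Of 15 other BCL2 family genes, 13 were tested, and Bcl2l10 and Hrk did not pass the filter on low counts. After bleo 5 rose and 3 fell in WT, and 5 rose and 1 fell in Pear1-/-. Bcl2a1a, a leukocyte survival gene with near-identical copies between which reads may be split, rose by 2.39 in WT (adjusted p = 2.77e-12) and by 1.36 in Pear1-/- (adjusted p = 3.6e-09) on the log2 scale. Bcl2l15 had between 11 and 38 reads in the vehicle libraries and between 2 and 9 in the bleo libraries. Between the bleo groups 3 were higher and 3 lower in Pear1-/-. Bcl2a1a was lower there (-1.18, adjusted p = 9.92e-09), as was its copy Bcl2a1d (-0.92, adjusted p = 2.89e-07). Bnip3, a hypoxia-responsive member, and Bok, an effector relative, were higher there, by 0.998 (adjusted p = 1.37e-07) and 0.89 (adjusted p = 1.55e-06).

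Of 13 caspases and apoptosome genes, 7 rose and 1 fell after bleo in WT, and 8 rose and 0 fell in Pear1-/-. Between the bleo groups 6 were higher and 1 lower in Pear1-/-. Aifm1, which encodes a mitochondrial flavoprotein, was higher in Pear1-/- bleo by 0.70 (adjusted p = 1.08e-05). Cycs, which encodes cytochrome c, and Htra2, which encodes a mitochondrial protease, rose after bleo in WT by 0.57 (adjusted p = 1.03e-05) and 0.74 (adjusted p = 1.11e-05), and in Pear1-/- by 0.70 (adjusted p = 1.37e-06) and 0.23 (adjusted p = 0.047). Endog, a mitochondrial nuclease, was lower after bleo in WT (-0.69, adjusted p = 0.0432), a call lost under 6 alternatives, among them leaving out WT vehicle replicate 2 (-0.34, adjusted p = 0.274), WT bleo replicate 1 (0.0993) or WT bleo replicate 2 (0.162). Apaf1, the scaffold of the apoptosome, was lower in Pear1-/- bleo (-0.24, adjusted p = 0.026), a call lost without each bleo library in turn.

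Of 8 inhibitors of apoptosis, 5 rose and 2 fell after bleo in WT, and 4 rose and 3 fell in Pear1-/-. In Pear1-/- bleo 1 was higher and 5 were lower than in WT bleo. The higher one was Birc5, which encodes survivin and is expressed in dividing cells. Its normalized counts (mean ± SD, n = 3) went from 75.8 ± 18.3 to 235 ± 18.2 with bleo in WT and from 53.6 ± 15.0 to 357 ± 29.8 with bleo in Pear1-/-, and the bleo groups differed by 0.59 ± 0.14 (adjusted p = 0.00283). The lower ones were led by Naip2 (-1.44, adjusted p = 4.96e-08) and Naip5 (-1.15, adjusted p = 3.87e-06), innate immune sensors of near-identical sequence whose reads may be split. Birc3 fell after bleo in Pear1-/- (-1.05, adjusted p = 7.04e-06) and had -0.11 in WT (adjusted p = 0.472). Its normalized counts ranged from 1440 to 2362 in WT vehicle and from 1588 to 1675 in WT bleo. Birc2 fell in both genotypes, by -0.40 in WT (adjusted p = 0.00117) and -0.31 in Pear1-/- (adjusted p = 0.00737). Without WT vehicle replicate 2 the WT value was -0.24 (adjusted p = 0.00632). Naip1 had between 0 and 1 reads in the WT bleo libraries and 0 in the Pear1-/- bleo libraries, so no fold is given.

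Of 10 death receptor genes, 4 rose and 4 fell after bleo in each genotype, and between the bleo groups 2 were higher and 3 lower in Pear1-/-. Fas, the death receptor, fell with bleo, by log2 values of -0.99 for WT (adjusted p = 1.87e-05) and -0.91 for Pear1-/- (adjusted p = 3.28e-05). Without WT vehicle replicate 2 the WT value was -0.68 (adjusted p = 7.11e-09). Fas was higher in Pear1-/- bleo than in WT bleo by 0.51 (adjusted p = 0.00812), a call lost without WT bleo replicate 2 (adjusted p = 0.0681). Cflar, which blocks caspase-8 at the receptor, was lower in Pear1-/- bleo (-0.48, adjusted p = 0.000107). Casp8 rose after bleo in WT by 1.13 (adjusted p = 9.19e-07) and in Pear1-/- by 0.40 (adjusted p = 0.00831). The adaptor gene Tradd rose by 0.49 in WT (adjusted p = 0.00236) and by 0.69 in Pear1-/- (adjusted p = 0.000123), and the adaptor gene Fadd by 0.57 in WT (adjusted p = 0.00332) and 0.70 in Pear1-/- (adjusted p = 0.000875). Tnfrsf1a, a receptor of TNF, was higher in Pear1-/- bleo than in WT bleo by 0.26 (adjusted p = 0.00896), a call lost without each bleo library in turn. Fasl had between 17 and 22 reads in the WT bleo libraries and between 0 and 6 in the Pear1-/- bleo libraries.

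Of 12 upstream regulators, 11 were tested and Trp73 did not pass the filter. After bleo 5 rose and 2 fell in each genotype. Cdkn1a, the p53 target that halts the cell cycle, rose by 1.21 in WT (adjusted p = 5.71e-10) and by 1.02 in Pear1-/- (adjusted p = 6.19e-09). Trp53, which encodes p53, rose by 0.49 in WT (adjusted p = 0.000245) and by 0.46 in Pear1-/- (adjusted p = 0.000439). Jun fell in WT (-0.38, adjusted p = 3.2e-05) and in Pear1-/- (-0.37, adjusted p = 4.59e-05). Trp63 fell in WT (-1.70, adjusted p = 0.000941) and had -0.46 in Pear1-/- (adjusted p = 0.341). Trp63 had between 17 and 22 reads in the WT bleo libraries, and its WT value ran from -1.92 to -0.843 over the alternatives. Between the bleo groups 1 was higher and 2 lower in Pear1-/-. Foxo1, a factor known to drive Bcl2l11 and Bbc3, averaged 212 ± 8.14 normalized counts in Pear1-/- bleo against 388 ± 14.8 for WT (SD, n = 3), or -0.88 ± 0.12 as log2 fold change (adjusted p = 2.29e-05). E2f1 was lower (-1.14, adjusted p = 5.69e-05) and Foxo3 higher (0.43, adjusted p = 0.000229). Between the vehicle groups 2 of the upstream regulators (Foxo1 and Foxo3) were higher in Pear1-/- and 1 (Trp63) lower, 1 of the inhibitors of apoptosis (Birc6) was lower, and none of the other 3 lists had a call. Each of those calls was lost without one or more vehicle libraries.

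The genes most like each member were found by Pearson's r of log2 CPM over the 12 libraries, among 10454 genes whose log2 CPM averaged 3 or more. The 12 libraries fall into 4 groups, so that r mostly measures the order of the groups. Mcl1 was most like Lyn, a kinase of blood cells (r = 0.998), and Ier5 (r = 0.996). Bax was most like Chd4 (r = 0.995) and Tmem37 (r = 0.993), and Bak1 most like Ubap2l (r = 0.987) and the replication gene Mcm3 (r = 0.986). Bcl2 was most like Ssh2 and Car4 (r = 0.978 for both), and Bcl2l1 most like Ighv7-3, an immunoglobulin segment (r = 0.99), and AW112010 (r = 0.986). Among the BH3-only members, Bmf was most like Inhba, which encodes a subunit of activin (r = 0.982), and Stx6 (r = 0.982), and Bid most like Cfap36 and H2afx (r = 0.991 for both). Pmaip1 was most like H3f3b (r = 0.991) and Capza2 (r = 0.99). Bcl2l11 (Sbno1, r = 0.945, and Setd3, r = 0.941) and Bbc3 (Ears2, r = 0.933, and Blk, r = 0.922) had the least close neighbours.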

How the data were processed

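RNA of flow-sorted CD140a+ lung cells was made into full-length cDNA (SMART-Seq v4) and sequenced, and per the labels and the study's methods reads were aligned to GRCm38 with HISAT2. The program that counted reads per gene and its strand setting are not given in the sources used here. The deposited count table holds whole read counts per gene, and the authors' normalized table holds the same counts divided by 1 size factor per library (a linear signal, in place of the log-like scale the methods name). Normalized counts in the text are those values. Everything else was computed from the counts of the 12 libraries.

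Of 40760 genes, 17418 passed edgeR's filterByExpr. One model with a mean for each of the 4 groups was fitted to all libraries (edgeR 4.0.16, R 4.3.3, TMM scaling, quasi-likelihood F test), and p-values were adjusted over all genes tested by Benjamini-Hochberg. Called means an adjusted p under 0.05. Standard errors of log2 fold changes were taken from the F statistic. The log2 ratio of Bax to Bcl2 used counts with a pseudocount of 0.5 and a two-sided exact permutation test. A floor of 3 counts equals 0.287 to 0.448 CPM by library, and covers counting error only. Positions and exon lengths are those of GENCODE (GRCm38), and promoters those of RefSeq (GRCm38.p6). The fits were also run on simulated counts. In that simpler case few genes were changed, only in WT bleo, and no library stood apart.

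The members, gene lists and marker lists were chosen with earlier results of these data known. All members were named, and from each list the 2 called genes with the smallest adjusted p in each direction of each comparison were named, with the values of only some comparisons, except for 1 gene that is not reported here. Alternatives were DESeq2 size factors, no filter on low counts, DESeq2 1.42.0, limma 3.58.1 on variance-stabilized values, the 2 groups alone, a replicate block, each library left out, and another pseudocount for the ratio.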

Additional observations from a re-analysis of the deposited data

Results flagged for a closer look

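For 7 members and 13 listed genes given here the difference made by bleo was unequal in WT and Pear1-/- by the test of the interaction itself (edgeR's quasi-likelihood test, Benjamini-Hochberg adjustment over all genes), beside 37% of all genes called for the interaction. These values are differences between 2 log2 fold changes, Pear1-/- minus WT. Among the members they were -1.16 for Bcl2, -0.66 for Bcl2l1, -1.44 for Mcl1, -0.66 for Bbc3, -0.36 for Pmaip1, -0.67 for Bcl2l11 and 0.92 for Bmf. The WT and Pear1-/- effects had opposite signs for Bcl2l11, and both were called, though the fall in Pear1-/- was not called without the filter on low counts (adjusted p = 0.0985). Bcl2 (0.38), Bcl2l1 (0.22) and Bbc3 (0.34) were also called higher in WT without WT vehicle replicate 2, while they were called lower in Pear1-/-.

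Among the other BCL2 family genes the difference was 0.80 for Bnip3 (adjusted p = 8.06e-05), 0.89 for Bok (0.000114), -1.02 for Bcl2a1a (1.38e-05) and -0.70 for Bcl2a1d (0.000413). Among the caspases and apoptosome genes it was 0.76 for Aifm1 (0.000385) and -0.51 for Htra2 (0.0104). Among the inhibitors of apoptosis it was 1.07 for Birc5 (0.00331), -1.32 for Naip5 (0.000121) and -1.10 for Naip2 (0.00019). In the death receptor list it was -0.73 for Casp8 (0.00373), and -3.18 for Fasl (0.000874). Fasl had between 70 and 96 reads in Pear1-/- vehicle and between 0 and 6 in Pear1-/- bleo, so that its fitted value depends on the prior count, and it ran from -3.72 to -1.23 over the alternatives, with -1.23 from limma on variance-stabilized values. Among the upstream regulators it was -1.34 for Foxo1 (1.93e-05) and -1.33 for E2f1 (0.000928). Of the 26 leukocyte markers, 23 had a called interaction below 0 and none above, and their part in these differences was not tested. Single values were not tested for outliers within the groups of 3 libraries.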

How the results depend on the processing

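The members called in the comparison of the vehicle groups went from 1 to 3 without the filter and with DESeq2, and to 0 with limma and with the 2 groups alone (5 and 4 members then had an unadjusted p under 0.05). The shares of all genes called were 13.8%, 8.52%, 1.64% and 0% in these fits (3091 genes had an unadjusted p under 0.05 in the last), against 4.5%. Without the filter the 3 were Bcl2, Mcl1 and Bbc3, and Bmf was not called (adjusted p = 0.0824). Leaving out a library gave between 0 and 8, with 8 only without WT vehicle replicate 2. Between the bleo groups, leaving out a library gave between 5 and 6 members in place of 8, with 5 without WT bleo replicate 2, Pear1-/- bleo replicate 2 or Pear1-/- bleo replicate 3. That count was 6 without the filter and with limma, where Bbc3 and Pmaip1 were lost, 7 with DESeq2, where Bbc3 was lost, and 9 with the 2 groups alone, where Bax was added, beside 19.2%, 44.6%, 43.4% and 66% of all genes called without the filter, with limma, with DESeq2 and with the 2 groups alone. The counts after bleo and for the interaction stayed within 1.5 times under every alternative. Signs turned only for differences near 0 that were not called. For Bax between the vehicle groups the value was -0.0058 with DESeq2 and -0.0095 with the 2 groups alone, and ran from -0.0751 to 0.176 with a library left out. For the Bak1 interaction it was -0.0718 without the filter and -0.194 to 0.155 with a library left out. Leaving out a library gave -0.0043 to 0.376 for Bcl2 after bleo in WT, and -0.0044 to 0.309 for Bak1 between the vehicle groups. Without the filter the fall of Bcl2l11 in Pear1-/- was not called (adjusted p = 0.0985). The cause was not tested. Labels give the groups the same replicate numbers, but the numbers do not pair the libraries. Deviations of same-numbered libraries correlated at -0.293 to 0.181 over 18 pairs, and 3 of 12 libraries correlated best with their own number. With the replicate block 7, 10, 8, 1 and 7 members were called after bleo in WT, after bleo in Pear1-/-, between the bleo groups, between the vehicle groups and for the interaction, the same counts as without it. Bak1 had the fewest reads of the members, and the effect of depth was not tested.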

Other observations

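Markers of other cell types were measured in the same libraries, and their part in the members' differences was not tested. The summed level of 10 epithelial markers was between 5271 and 7044 CPM in the vehicle libraries, between 1830 and 1857 in WT bleo and between 793 and 810 in Pear1-/- bleo. Of these markers 1 was higher and 7 lower in Pear1-/- bleo than in WT bleo. The 8 endothelial markers summed to between 436 and 466 CPM in the vehicle libraries and between 247 and 264 in the bleo libraries, with 2 higher and 2 lower in Pear1-/- bleo than in WT bleo. The 6 mural and smooth muscle markers summed to between 337 and 400.3 CPM in the vehicle libraries, between 265 and 272 in WT bleo and between 659 and 691 in Pear1-/- bleo, with 2 higher, 2 lower and 2 not called in Pear1-/- bleo against WT bleo. The 4 mesothelial markers summed to at most 54.2 CPM and the 5 erythroid markers to at most 33.5 CPM in any library.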
